A study of Mus musculus with 4 samples.

Results

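The genes described are ligands of the epidermal growth factor receptor (EGFR), receptors of the ERBB family and the receptor inhibitor ERRFI1, measured in SW620 cells with and without the compound F5446. The list held 10 genes: the ligands EREG, HBEGF, AREG, TGFA, BTC and EPGN, the receptors EGFR, ERBB2 and ERBB3, and ERRFI1. A named probe set was found for 7 of them, out of 14884 genes named on the arrays, and each of the 7 had 1 named probe set. AREG, TGFA and ERBB2 were among the genes not analysed here. EREG and HBEGF were chosen because their signal was known to be higher after F5446, and the others were added by family. The comparison of treated with untreated cells that follows therefore describes all 7 genes and tests none of them.

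EGFR ligands are made as membrane-anchored precursors, and metalloproteases such as ADAM17 cut them free. A released ligand joins receptors into pairs, and these signal through RAS, RAF, MEK and ERK, and through PI3K and AKT. ERBB3 has little kinase activity of its own and signals in pairs with other ERBB receptors. The pathway sustains growth of the intestinal epithelium, and antibodies against EGFR are used to treat colorectal cancer. SW620 is a human line derived from a lymph node metastasis of a colon carcinoma.

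The study compared untreated SW620 cells (labelled Ctrl) with SW620 cells given 50 nM F5446, which the series calls a selective inhibitor of the histone H3 lysine methyltransferase SUV39H1, for 2 days. The 2 days are recorded for the treated cells only, and the untreated cells are listed at an earlier day. Whether the untreated cells were given vehicle, or were cultured for the same time, is not stated here. An effect of time in culture or of vehicle, apart from F5446, was not tested. The words after F5446 therefore name the treated group set against this control. Both groups were grown in RPMI medium with serum, and each held 2 arrays. The series describes these as biological replicates, and whether each came from its own culture is not given. All spreads and p-values therefore measure differences between these arrays, which may be technical. The records list the species as mouse, yet SW620 is a human line and the probe sets carry human gene names, and the values were read as human.

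Each array gave a log2 signal for 53617 probe sets, with array medians from 4.40 to 4.44. The table has no detection calls, so that median serves as a mark for a dim probe set. Untreated and treated arrays correlated within their groups at r = 0.994 and r = 0.995 across genes, which are not independent replicates. In limma's test over all 14884 genes, 40.9% passed a Benjamini-Hochberg adjusted p of 0.05, with 18.2% higher and 22.7% lower after F5446. With each array centred on its median the split turned from 2714 higher and 3372 lower to 3420 higher and 2735 lower. The arrays of the groups did not overlap at 66.2% of genes. Of the 7 family genes, 5 passed the same threshold, 4 higher and 1 lower, and the same number had groups that did not overlap. Because this contrast chose the genes, nothing is read from those counts.

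After F5446 the transcripts of the ligands EREG and HBEGF, of the receptor EGFR and of the inhibitor ERRFI1 were higher, and that of the receptor ERBB3 was lower. The ligands BTC and EPGN stayed below the array median in both groups. The differences of the 5 genes that moved were from 3.97-fold (ERBB3, lower) to 17.8-fold (EREG, higher). Their SDs between replicate arrays were 0.27 or less on the log2 scale. RNA from a culture cannot tell a change in the number of expressing cells from a change in RNA per cell.

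**Figure D1:**
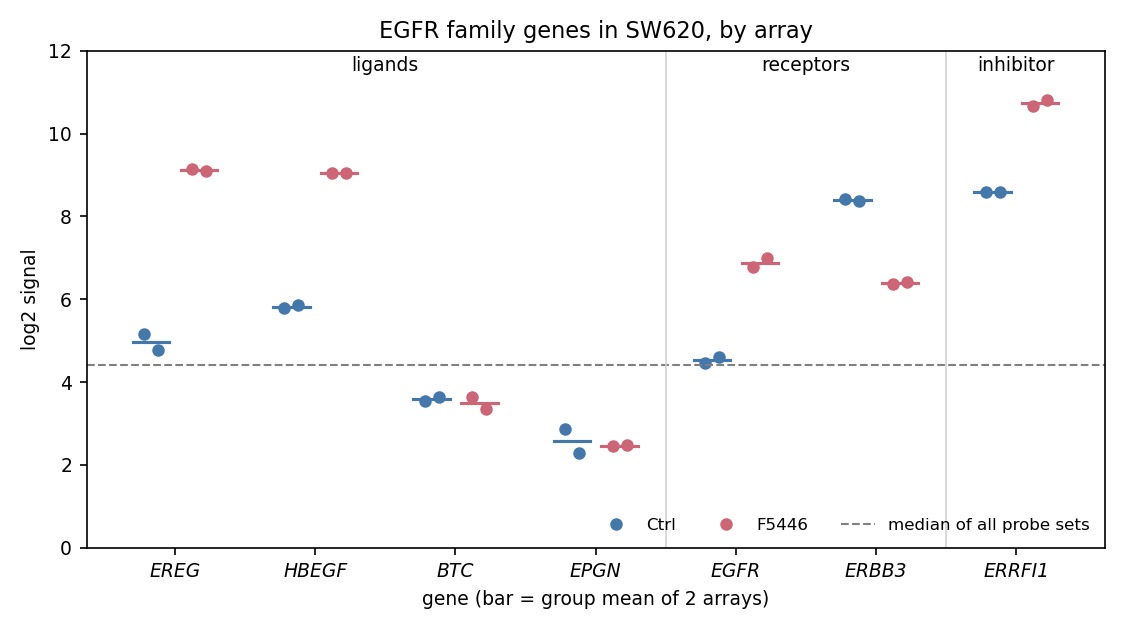
Log2 signal (vertical axis) of the 7 measured genes on each of the 4 arrays, with points for single arrays, bars for group means of 2 arrays and a dashed line at the median of all probe sets. EREG, HBEGF, EGFR and ERRFI1 lie higher on both F5446 arrays, ERBB3 lies lower, and BTC and EPGN lie under the dashed line on all 4.

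Among the ligands, EREG encodes epiregulin, which binds EGFR and ERBB4. Its probe set 16967843 read 5.16 and 4.77 on the untreated arrays and 9.14 and 9.09 on the treated arrays. The untreated arrays were close to the array median, at 4.96 ± 0.27 (SD, n = 2), and the treated ones were far above it, at 9.11 ± 0.041 (SD, n = 2). The highest untreated and the lowest treated array were separated by 3.93, while the untreated arrays differed from each other by 0.38. The log2 fold change was 4.15 ± 0.13 (SE), or 17.8-fold, and EREG ranked 2 among all 14884 genes by the size of its rise. Taking each treated array against each untreated one gave differences from 3.93 to 4.37. Most of that range came from the untreated arrays, since the treated arrays differed by 0.058. A signal this near the array median may hold background, so the fold may be understated.

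HBEGF encodes heparin-binding EGF-like growth factor, a ligand of EGFR and ERBB4 whose membrane-bound precursor is also the receptor for diphtheria toxin. Probe set 17000724 read 5.78 and 5.86 in untreated cells and 9.05 and 9.06 in treated cells. The replicates lay close together, with group values of 5.82 ± 0.057 and 9.05 ± 0.0062 (SD, n = 2 each). The log2 fold change was 3.23 ± 0.09 (SE), or 9.41-fold, which ranked 21 among all rises. The gap between the groups was 3.19, against a difference of 0.081 between the untreated arrays. Unlike EREG, HBEGF was well above the array median before treatment, by 1.41 on the log2 scale.

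The rise of EREG exceeded that of HBEGF by 0.92 on the log2 scale, a ratio of 1.89-fold. Over the 4 pairings of a treated with an untreated array this difference ran from 0.65 to 1.18. Being a difference between genes on the same array, it does not depend on how the arrays are centred.

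BTC encodes betacellulin, another ligand of EGFR and ERBB4. Its probe set 16976868 read 3.54 and 3.65 in untreated cells and 3.64 and 3.35 in treated cells. The groups overlapped, and all 4 values lay below the array median. The log2 fold change was -0.10 ± 0.18 (SE), with group values of 3.60 ± 0.079 and 3.50 ± 0.20 (SD, n = 2 each).

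EPGN encodes epigen, a low-affinity ligand of EGFR. Probe set 16967831 read 2.87 and 2.30 in untreated cells and 2.47 and 2.47 in treated cells. These were the lowest signals of the 7 probe sets, and the treated values fell between the untreated ones. The log2 fold change was -0.11 ± 0.21 (SE), with group values of 2.58 ± 0.41 and 2.47 ± 0.0017 (SD, n = 2 each). At such signals a small change or a fall could not be seen, and no change in either ligand was detectable.

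Of the receptors, EGFR is the common receptor of all these ligands. Its probe set 17046135 read 4.47 and 4.62 in untreated cells and 6.77 and 7.00 in treated cells. The untreated arrays lay 0.13 above the array median and the treated arrays 2.45 above it. The group values were 4.54 ± 0.11 and 6.89 ± 0.16 (SD, n = 2 each), and the log2 fold change was 2.34 ± 0.14 (SE), or 5.07-fold. The gap between the groups was 2.16, against differences of 0.15 and 0.22 between replicate arrays. As with EREG, an untreated signal at the array median may understate the fold. EGFR ranked 84 among the rises.

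ERBB3 is a receptor of some neuregulins. Probe set 16752397 moved the other way, from 8.41 and 8.37 in untreated cells to 6.38 and 6.42 in treated cells. The replicates differed by 0.044 untreated and 0.036 treated, while the groups stood 1.95 apart. The group values were 8.39 ± 0.031 and 6.40 ± 0.026 (SD, n = 2 each), and the log2 fold change was -1.99 ± 0.09 (SE), a 3.97-fold fall that ranked 258 among all falls. ERBB3 stayed well above the array median after treatment, by 1.96 on the log2 scale.

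EGFR and ERBB3 thus changed in opposite directions on both treated arrays. Relative to the untreated mean, the log2 ratio of EGFR to ERBB3 was 4.24 and 4.43 higher on the treated arrays. The mean change of this ratio was 4.33, or 20.2-fold, and it ran from 4.14 to 4.52 over the 4 pairings of a treated with an untreated array. The signals of 2 probe sets cannot be compared as amounts, so this ratio says that the receptors changed unequally and not which was the more abundant. Its size carries the same limit as the fold of EGFR, whose untreated signal was at the array median.

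ERRFI1 encodes MIG6, a cytoplasmic protein that binds the EGFR kinase domain and blocks it, and whose gene is itself induced by EGFR signalling. Its probe set 16681304 read 8.59 and 8.59 in untreated cells and 10.67 and 10.82 in treated cells. The group values were 8.59 ± 0.0011 and 10.7 ± 0.10 (SD, n = 2 each). The log2 fold change was 2.15 ± 0.07 (SE), or 4.44-fold, and ranked 119 among the rises. Before treatment ERRFI1 lay 4.19 above the array median on the log2 scale, so dimness does not limit its fold as it may limit that of EGFR.

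**Figure D2:**
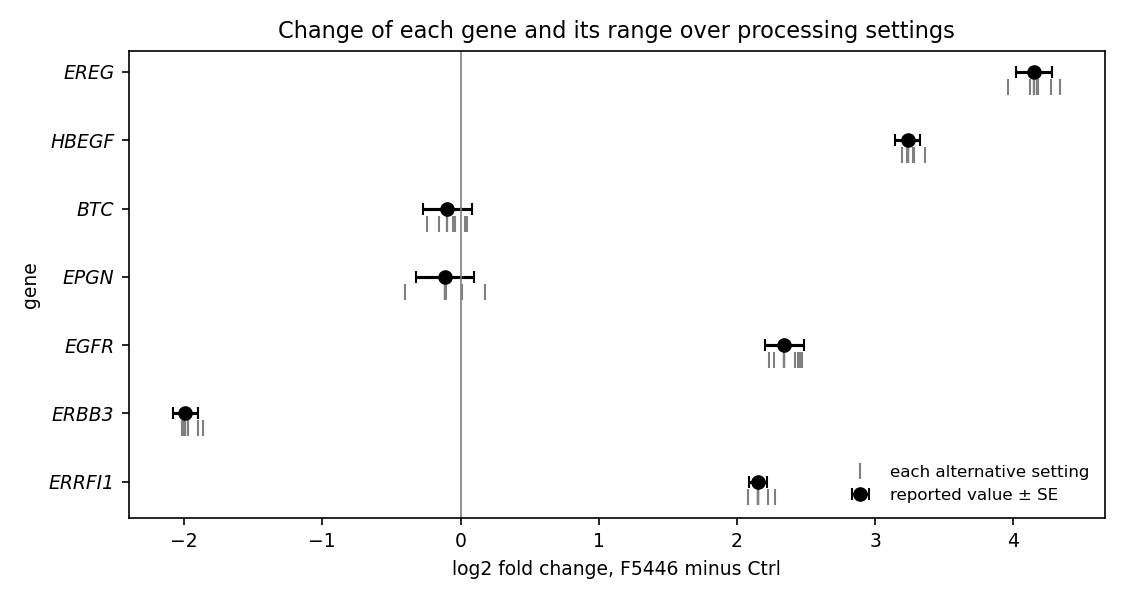
Log2 fold change after F5446 (horizontal axis) of each of the 7 genes, with the SE of the fit as a bar and grey ticks for the values under the other processing settings. The ticks of EREG, HBEGF, EGFR, ERRFI1 and ERBB3 stay on one side of 0, from 3.96 to 4.34 for EREG and from -2.01 to -1.86 for ERBB3, while those of BTC and EPGN lie on both sides.

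**Figure D3:**
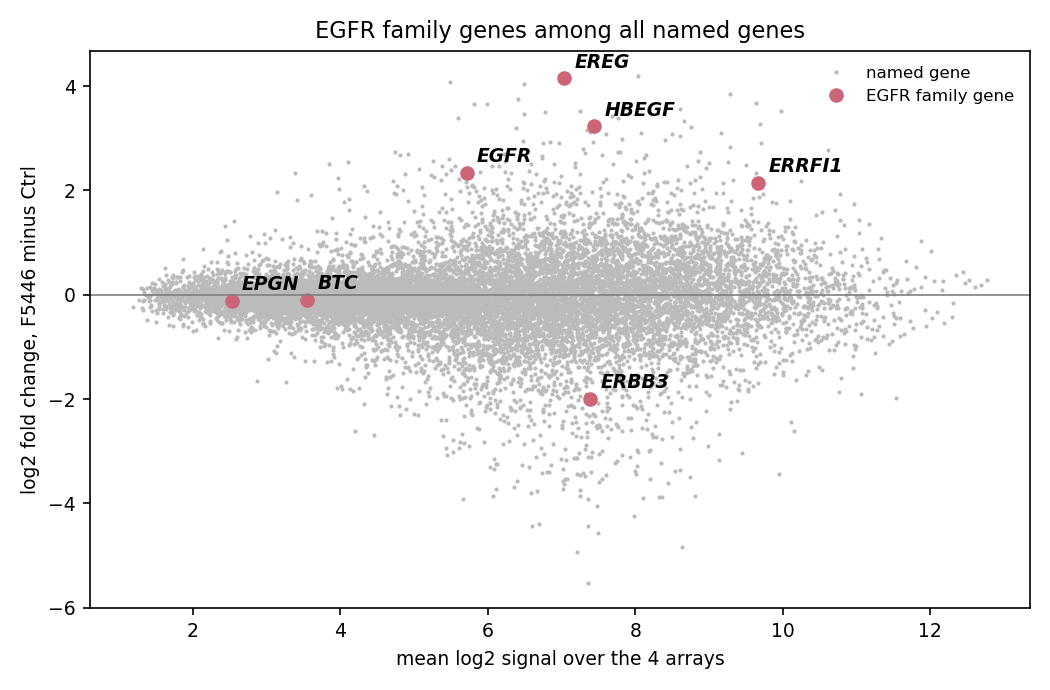
Log2 fold change after F5446 (vertical axis) against the mean log2 signal over the 4 arrays (horizontal axis) for 14884 named genes in grey, with the 7 family genes as large points. EREG and HBEGF lie at the upper edge of the cloud, with ranks 2 and 21 by rise, and BTC and EPGN lie near 0 at low signal.

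The genes whose 4 array values ran most like those of EREG, after each gene's untreated mean was subtracted, were DUSP5, DKK1, CDA, LINC00622 and CD68. Likeness was the root mean square difference of log2 signals over 4 arrays, from 0.033 for DUSP5 to 0.35 for CD68. DUSP5, an ERK phosphatase, read 6.14 and 5.75 untreated and 10.18 and 10.10 treated. Likeness was measured over the untreated arrays too, so their shared order with EREG is part of the match. A second probe set of DUSP5 changed by 1.44 rather than 4.19 on the log2 scale, so this match holds for 1 of its probe sets. For HBEGF the nearest genes were MIR22HG, EMP1, TMC7, UPP1 and PMAIP1, with differences from 0.041 to 0.12. EMP1, which encodes an epithelial membrane protein, read 7.14 and 7.13 untreated and 10.39 and 10.33 treated.

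The ERBB ligand and receptor genes outside that list were EGF, NRG1, NRG2, NRG3, NRG4 and ERBB4. All 6 were measured, 0 passed as higher and 1 as lower (16.7% called, against 40.9% of all genes), with a median log2 fold change of -0.05, where that of all named genes was also -0.05. NRG4, an ERBB4 ligand, read 4.26 and 4.81 in untreated and 3.39 and 3.67 in treated cells, a log2 fold change of -1.01 ± 0.22 (SE, limma adjusted p = 0.0046). Without F5446 replicate 1 its adjusted p was 0.073, within a range of 0.0044 to 0.073 over the settings, and as a dim gene it was left out by the filter on signal. The receptor ERBB4 read 2.75 and 2.98 untreated and 2.62 and 3.01 treated, below the array median on every array. EGF read 4.10 and 3.94 untreated and 4.12 and 3.85 treated, also below it; both were singled out after their values were seen. In 4 of these 6 genes every value was below the array median, where small changes and falls could not be seen.

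The further pathway genes were grouped by role in lists made with earlier results of these data known. In the list of genes that release ligands, 17 of 25 were measured, of which 7 rose and 4 fell (64.7% called, against 40.9% of all genes), with a median log2 fold change of 0.13, against -0.05. RHBDF1, an inactive rhomboid that brings ADAM17 to the cell surface, rose 6.58-fold (limma adjusted p = 2.17e-06). Among genes chosen after their values were seen, ADAM17, the main protease for HBEGF and EREG precursors, rose from 8.29 and 8.25 to 9.42 and 9.36, or 2.17-fold (limma adjusted p = 1.74e-06), while ADAM10, which cuts BTC, fell 1.58-fold. RHBDF2, the other inactive rhomboid, fell 1.21-fold (limma adjusted p = 0.033), but its adjusted p was 0.23 with each array centred and it passed in 5 of 12 settings. TIMP3, an ADAM17 inhibitor, rose 2.22-fold at its brighter probe set, where its dim second probe set changed by -0.06 and the mean of both by 0.55 on the log2 scale. PACSIN3, an adaptor that acts on ligand shedding, fell 2.29-fold.

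Of the adaptors and kinases below the receptors, 31 of 51 were measured, of which 16 rose and 3 fell (61.3% called, against 40.9% of all genes; median 0.31). GAB2, a docking protein for PI3K and SHP2, rose 3.11-fold, and MAP2K2, which encodes MEK2, rose 3.07-fold. MAPK3, which encodes ERK1, fell 2.66-fold. The fallen genes numbered 1 without F5446 replicate 1 and 5 with dim genes left out.

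Among inhibitors of the receptors and of RAS signalling, 30 of 51 were measured, of which 16 rose and 4 fell (66.7% called, against 40.9% of all genes; median 0.37). DUSP5 rose 18.3-fold at its brighter probe set, or by 2.82 on the log2 scale as the mean of both, RASAL2, a RAS GTPase-activating protein, 4.93-fold and SPRY4, a Sprouty protein, 4.76-fold. The 4 that fell were chosen after their values were seen. PEBP1 fell most, 2.64-fold (limma adjusted p = 8.32e-07). LRIG1, a membrane protein that sends ERBB receptors to breakdown, fell 2.02-fold (limma adjusted p = 3.83e-05). UBASH3B and RASAL1 fell 1.61-fold and 1.57-fold. Of the other LRIG genes, also chosen after their values were seen, LRIG2 rose 2.27-fold (limma adjusted p = 1.78e-05) and LRIG3 did not pass. Receptor uptake and sorting genes were measured in 22 of 37 cases, of which 8 rose and 3 fell (50% called, near the 40.9% of all genes; median 0.19). EPS15 and HGS, which sort ubiquitin-tagged EGFR, rose 2.45-fold and 2.03-fold. REPS2, an EPS15 partner, rose 1.74-fold but passed in 6 of 11 settings. The rises numbered 13 with each array centred and 5 without control replicate 1, F5446 replicate 1 or F5446 replicate 2.

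Of genes used as a transcript read-out of ERK activity, 37 of 47 were measured, of which 30 rose and 4 fell (91.9% called, against 40.9% of all genes, and 18.2% of all genes higher; median 0.89). Of these genes 5, DUSP4, DUSP5, DUSP6, SPRY2 and SPRY4, are also on the list of inhibitors, and all 5 rose. An earlier analysis of the same arrays had shown rises of immediate early genes, so this count is not independent evidence of a direction. The largest rises were those of DUSP5 at its brighter probe set, of UPP1, which encodes uridine phosphorylase (8.92-fold), and of the cytokine gene LIF (7.61-fold). With averaged probe sets DUSP5 rose by 2.82 on the log2 scale, less than UPP1 (3.16) and LIF (2.93). The 4 that fell, chosen after their values were seen, were FOS and ETV1, ETV4 and ETV5, the PEA3 subfamily of ETS factors. ETV1 fell 2.88-fold (limma adjusted p = 1.65e-05), FOS fell 1.47-fold (adjusted p = 0.00061) and ETV4 fell 1.44-fold (adjusted p = 0.0005). ETV5 fell 1.20-fold (adjusted p = 0.044), but it passed in 3 of 12 settings, and its adjusted p was 0.28 with each array centred.

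**Figure D4:**
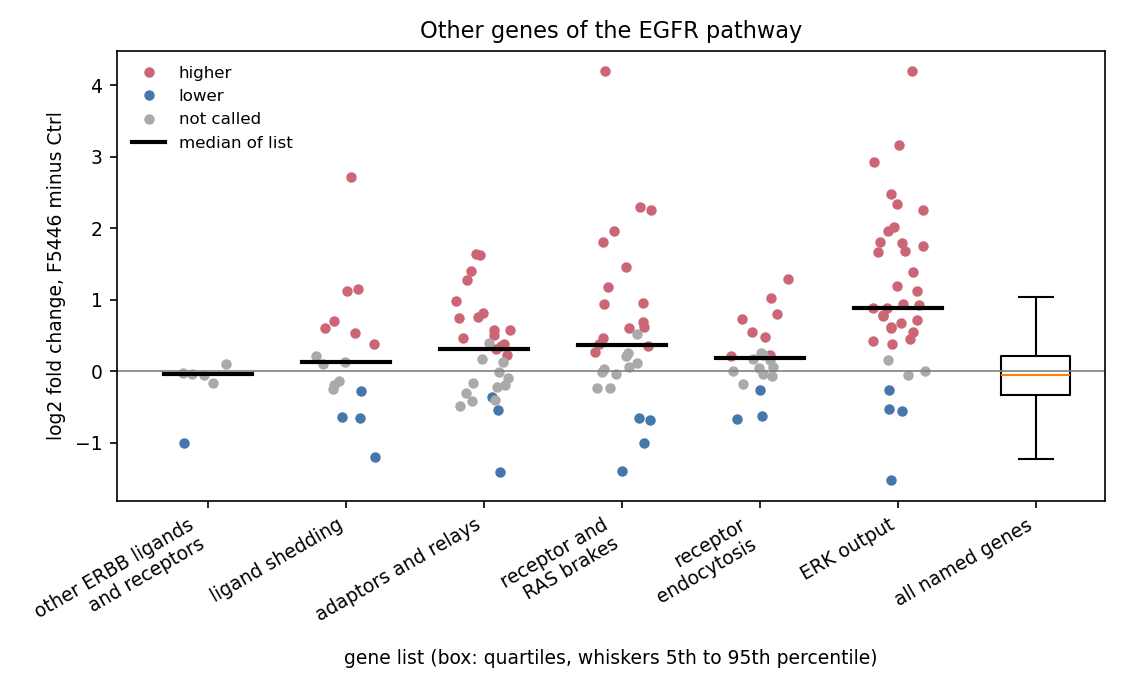
Log2 fold change after F5446 (vertical axis) of each measured gene in 6 lists of the EGFR pathway, with colour for genes that passed as higher, passed as lower or did not pass, a bar at each list's median and a box for all named genes. The median was 0.89 for the ERK output list and between -0.05 and 0.37 for the others, beside -0.05 for all named genes.

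The labelled cell type was checked against markers. Colon epithelial markers were measured in 15 of 20 cases, of which 3 rose and 7 fell (66.7% called, against 40.9% of all genes). VIL1, which encodes villin, fell 14.7-fold, from 10.3 to 6.42, the splicing factor gene ESRP1 fell 2.33-fold and CEACAM5 rose 3.80-fold. Other markers were chosen after their values were seen. The keratin gene KRT18 fell from 11.8 to 10.7 and the adhesion gene EPCAM from 11.04 to 10.29, both still bright. KRT19, another bright keratin gene, rose from 10.07 to 10.55, and CEACAM6 rose 2.10-fold from a dim 3.41. KRT20 and GRHL2 lay below the array median on every array. The epithelial markers' summed linear signal was 9872 to 9896 in untreated and 5526 to 5586 in treated cells. KRT18, EPCAM and VIL1 were the brightest of the 15 untreated, so this sum follows them most, and 5 of the 15 did not pass. Of 11 measured immune markers, 1 rose and 3 fell (36.4% called, near the 40.9% of all genes). PRF1, which encodes perforin, read 9.25 untreated and fell 6.08-fold. LYZ, which encodes lysozyme, fell 3.45-fold from 6.71 at its brighter probe set. The dim second probe set of LYZ changed by -0.52 and the mean of both by -1.15 on the log2 scale. CD4, chosen after its value was seen, fell 2.83-fold from 6.88. CD14, CSF1R and S100A8 were singled out because they lay below the array median on every array. The immune markers' summed signal was 1269 to 1274 untreated and 3212 to 3275 treated. Without CD68, which rose 12.9-fold, the sum was 1042 to 1056 untreated and 375 to 382 treated. PRF1 was the brightest of the 11 untreated, so that last sum follows PRF1 most, and 7 of the 11 did not pass. Of 8 measured stromal markers, 1 rose and 1 fell (25% called, against 40.9% of all genes). TAGLN, which encodes transgelin, rose 1.44-fold and LUM, which encodes lumican, fell 8.12-fold from 7.03. The call of TAGLN was lost without F5446 replicate 2 (limma adjusted p = 0.065, with a range of 0.0012 to 0.065 over the settings). Of the 8, 4 lay below the array median throughout, and the sum was 295 to 298 untreated and 204 to 224 treated. LUM was the brightest of the 8 untreated and the only called fall, and 6 did not pass. The lower sum is therefore no sign of a general stromal fall. The part of these shifts in the changes of the EGFR family genes was not tested.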

How the data were processed

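Total RNA was hybridised to whole-transcript oligonucleotide arrays. Per the submitters' processing notes, Partek was used; how the authors corrected background, normalized and summarised probe sets is, like the scale, not given in the sources used. The deposited values were taken as log2 signal, a scale inferred from their range of 0.71 to 13.8. Scaling between arrays would hide a difference in total RNA per cell. Platform annotation named 16098 of 53617 probe sets; where a gene had several, the one of highest mean signal stood for it. The model was limma 3.58.1 under R 4.3.3 (intensity trend, group as the only term, two-sided, Benjamini-Hochberg over 14884 genes, threshold 0.05). Fold changes carry SEs from that fit, and group means carry SDs over 2 arrays; the number of arrays limits precision. On simulated arrays of 14884 genes, 100 genes were changed by a log2 of 1 and 100 by 2. The fit recovered 48% and 88% of them, with 138 calls, of which 2 were false. The real arrays gave 6086 calls, so these rates may not hold for this comparison.

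The members and gene lists were chosen with earlier results of these data known. The genes named are all members; in each list the 3 largest changes among genes past the threshold whose groups did not overlap; the 5 genes most like EREG and HBEGF; and genes said to be chosen or singled out after their values were seen. Alternatives were array centring on the median of the named genes, quantile normalization, a filter on dim genes and no trend. Others were averaged probe sets, all probe sets, each replicate left out and the replicate number as a block. Human genome positions and sequences were not used here, so the planned calls among neighbouring genes were not made.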

Additional observations from a re-analysis of the deposited data

How the results depend on the processing

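For the 7 family genes, the variance model, the averaging of probe sets, the features tested, the block and the dim-gene filter leave a fold change as it is by construction, so only rescaling and left-out arrays could move it. Of 14 values under rescaling, 5 moved by more than the SD between replicates. Refits of the same 4 arrays are no support for genes chosen on them. With each array centred, the log2 fold change was 3.36 for HBEGF, -1.86 for ERBB3 and 2.28 for ERRFI1, and with quantile normalization it was 3.28 for HBEGF and -1.90 for ERBB3. Centring moved the median of all genes by 0.13. Leaving out 1 array gave 3.96 to 4.34 for EREG, -0.24 to 0.05 for BTC and -0.40 to 0.17 for EPGN. With each array centred, BTC was at 0.03 and EPGN at 0.01. The sign of this last pair therefore depends on single arrays and on centring. Over all probe sets 6274 were higher and 5483 lower, where more features were tested. With dim genes left out, 5 adaptors and relays fell and 0 of the other ligands and receptors did. With 1 array left out, 1 to 3 adaptors and relays fell, 0 to 1 of the other ligands and receptors fell and 5 to 6 receptor uptake genes rose. Receptor uptake genes rose in 13 cases with each array centred and in 5 both without an intensity trend and over all probe sets; the cause was not tested. With an array left out, the lone array of a group is assumed to vary like the other group. Arrays with the same replicate number deviated together only weakly (r = 0.044 across genes, 2 pairs), so the number is not taken as a pairing; with the replicate block 2722 genes were higher and 3342 lower, and among the genes named the call of ETV5 was lost (adjusted p = 0.053). Calls among genomic neighbours were planned but not run, since a human gene order was not used here. Dim probe sets limit what can be said of BTC, EPGN, EGF, ERBB4, NRG1 and NRG3.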
